A study of Mus musculus with 2 samples.

Results

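The members described here are 37 mouse genes of the G2 phase and of mitosis, taken from a fixed list of symbols and found by symbol in the deposited expression table. Each of the 37 symbols had 1 row, out of 54532 genes in the table. The RNA came from LA4, an established line described as mouse lung epithelial cells, and was sequenced. The labels name 2 groups with 1 wild-type sample each. In the control group the LA4 cells and the lymphocytes had no time together in culture, and in the co-culture group each LA4 cell was given 10 lymphocytes for times that the labels do not list. The column named for the cell line alone, LA4, is taken here for the control because of its bare name, although no label says so. The columns LA4_SP, LA4_MITO and LA4_TRANS carry suffixes found in no label and were not analysed here, so no difference between control and co-culture is given.

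Levels are FPKM, the reads of a gene scaled to its length and to the size of the library. The LA4 column is the authors' mean, which could be taken apart into the whole reads of 3 libraries. They are numbered 1, 2 and 3 by decreasing size. Their FPKM values were scaled to 15589461, 14389746 and 14350359 reads. The libraries carry no labels and nothing says whether they came from separate cultures, so their values are given one by one, with no SD and no p-value. The label of an epithelial line was checked against its markers. All 6 epithelial markers (Epcam, Cdh1, Krt8, Krt18, Krt19 and Cldn4) were under 1 FPKM, with Krt8 highest at 0.828 FPKM and Epcam and Krt18 at 0 reads. All 4 mesenchymal markers were high, with Acta2 at 4835, Vim at 823, Col1a1 at 474 and Pdgfrb at 47.4 FPKM. These marker levels went against the epithelial label, for a reason that was not tested. Of the lymphocyte markers, Cd3g was at 0.104 FPKM, and Ptprc and Cd3e were at 0 reads.

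Cells that commit to division build up a common set of transcripts in late S phase and G2. Cyclin A and cyclin B activate the kinase Cdk1, the Polo-like and Aurora kinases build the spindle, and the spindle checkpoint holds the anaphase-promoting complex until every kinetochore is attached. Many of these genes are repressed in resting cells by the DREAM complex and switched on in dividing cells by B-Myb and FoxM1. Binding at their promoters is known to involve a short element called CHR (cell cycle genes homology region) and the CCAAT box, which NF-Y binds. Summed over a culture, their transcripts are widely used as a measure of how many cells are dividing. In bulk RNA, fewer dividing cells and less of each transcript per cell cannot be told apart.

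The promoters of the members were searched for the CHR element and the CCAAT box. Both are known from genes of this class, so the shares below describe the list and are no independent support for it. RefSeq promoters (build GRCm38.p6), from 250 bases before to 50 bases after the start site, were matched by symbol for 32 members, and 2 of these had 2 start sites, which gives 34 promoters. The other members, Kif20a, Aurkb, Tpx2, Cdc25c and Ccna2, are only named here. The CHR core was searched as TTTGAA or TTCGAA and the CCAAT box as CCAAT, each on both strands. The core TTCGAA is its own reverse complement and was counted once, and matches of the 2 motifs may overlap.

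A CHR core occurred in 28 of the 34 member promoters (82.4%), against 19.2% of all 32851 promoters in the RefSeq table. In the 150 bases before the start site alone, it occurred in 12 of the 34 (35.3%), against 9.70% of all. A CCAAT box occurred in 26 of the 34 (76.5%), against 37.4% of all promoters. Both motifs together were found in 24 member promoters (70.6%) and in 7.52% of all promoters, and 2 or more CCAAT boxes in 18 (52.9%) against 11.7%. The base composition of the promoters was not matched, and a match of letters does not show that a factor binds there.

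The stretches below run from 120 bases before to 30 bases after the start site, with CHR cores and CCAAT boxes in capitals on either strand (ATTGG is the box and TTCAAA the core read from the other strand). The first 7 are those of a kinase, 2 cyclins, 2 genes of the anaphase-promoting complex pathway, a topoisomerase and a passenger protein, and Birc5 is shown as a member whose window holds neither motif.

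Cdk1 (chr10:69352883-69353032, minus strand): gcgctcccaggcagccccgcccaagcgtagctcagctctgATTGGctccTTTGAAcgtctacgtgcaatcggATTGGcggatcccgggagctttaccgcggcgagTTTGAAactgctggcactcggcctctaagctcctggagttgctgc
Ccnb2 (chr9:70421525-70421674, minus strand): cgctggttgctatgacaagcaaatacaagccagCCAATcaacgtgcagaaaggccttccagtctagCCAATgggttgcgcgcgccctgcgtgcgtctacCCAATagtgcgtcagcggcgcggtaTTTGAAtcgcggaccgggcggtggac
Ccnb1 (chr13:100786457-100786606, minus strand): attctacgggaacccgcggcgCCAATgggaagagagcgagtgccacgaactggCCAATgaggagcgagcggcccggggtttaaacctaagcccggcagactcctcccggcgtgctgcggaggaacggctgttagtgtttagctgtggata
Cdc20 (chr4:118437314-118437463, minus strand): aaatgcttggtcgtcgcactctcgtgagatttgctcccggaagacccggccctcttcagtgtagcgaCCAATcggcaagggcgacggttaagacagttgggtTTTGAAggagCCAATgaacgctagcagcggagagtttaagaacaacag
Ube2c (chr2:164769809-164769958, plus strand): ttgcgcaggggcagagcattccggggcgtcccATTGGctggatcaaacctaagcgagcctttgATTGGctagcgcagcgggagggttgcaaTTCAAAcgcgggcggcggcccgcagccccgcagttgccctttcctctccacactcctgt
Top2a (chr11:99024160-99024309, minus strand): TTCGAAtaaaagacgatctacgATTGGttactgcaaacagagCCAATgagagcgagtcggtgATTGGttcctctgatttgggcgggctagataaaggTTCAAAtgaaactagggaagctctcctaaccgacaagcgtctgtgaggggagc
Cdca8 (chr4:124936888-124937037, minus strand): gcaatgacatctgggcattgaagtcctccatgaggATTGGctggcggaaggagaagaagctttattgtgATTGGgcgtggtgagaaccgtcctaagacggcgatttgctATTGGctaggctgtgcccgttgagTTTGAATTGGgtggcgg
Birc5 (chr11:117849117-117849266, plus strand): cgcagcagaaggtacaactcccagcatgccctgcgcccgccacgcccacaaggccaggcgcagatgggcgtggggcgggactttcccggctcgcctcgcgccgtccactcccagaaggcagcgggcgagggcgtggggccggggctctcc

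In Cdk1, the catalytic kinase of mitotic entry, a CHR core began 15 bases before the start site and a further one 71 bases before it, next to CCAAT boxes. Ccnb2 (cyclin B2) held 3 CCAAT boxes on the same strand with a CHR core 5 bases after the start. Ccnb1 (cyclin B1) held 2 CCAAT boxes and no core of the letters searched in this window. Cdca8 showed a core that ran into a CCAAT box on the other strand. Top2a had the most CHR cores of any member promoter, 4 in the whole window, and 6 CCAAT boxes, as many as Ube2c.

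**Figure D1:**
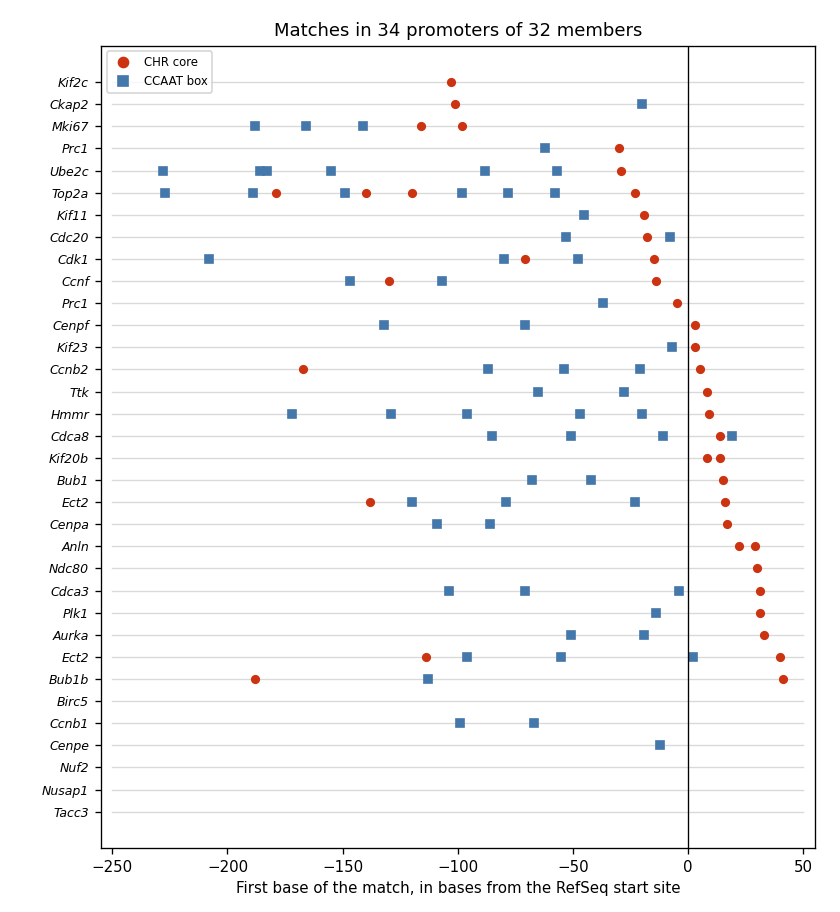
Positions of CHR cores (circles) and CCAAT boxes (squares) in the 34 promoters of 32 members, as bases from the RefSeq start site (vertical line). Each row is a promoter, Ect2 and Prc1 have 2 each, rows are ordered by their CHR core nearest the right-hand end, and the lowest 6 rows hold no core. Cores cluster around and after the start site and CCAAT boxes lie mostly before it.

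Among the 40 CHR cores in the member promoters, 19 began in the 50 bases after the start site, 8 in the 50 bases before it, 10 between 150 and 51 bases before it and 3 further upstream. The 63 CCAAT boxes lay mostly upstream of that, 34 of them between 150 and 51 bases before the start and 2 after it. The promoters of Ect2 overlap, as do those of Prc1, so some sites were counted in both. The 40 cores are 37 distinct sites in the genome and the 63 boxes are 59. The 4 member promoters with neither motif were those of Birc5, Nuf2, Nusap1 and Tacc3. Kif20b, Kif2c, Anln and Ndc80 held a core and no CCAAT box, whereas Ccnb1 and Cenpe held a box and no core. A RefSeq start site need not be the outermost start of the gene as deposited. On the minus strand of chromosome 4, the Kif2c window ended at 117179022 and the gene at 117182639. The Cdca8 window ended at 124937167 and the gene at 124939311, so both windows lay inside their genes. So did that of Cdca3, on the plus strand of chromosome 6, where the window began at 124829926 and the gene at 124829547.

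Other cell cycle lists of the same table held the CHR core less uniformly. It was present in 4 of 21 S phase promoters (19.0%), in 2 of 17 promoters of G1 cyclins, kinases and inhibitors (11.8%) and in 4 of 19 of the anaphase-promoting complex list (21.1%). It was present in 6 of 10 promoters of passenger and centralspindlin partners (60.0%), 9 of 17 of condensin and cohesin (52.9%) and 8 of 20 of checkpoint and kinetochore partners (40.0%). A CCAAT box was in 5 of 6 promoters of mitotic entry regulators (83.3%) and 7 of 10 of passenger and centralspindlin partners (70.0%). Its share was 61.9% for S phase, 60.0% for checkpoint and kinetochore partners and 54.5% for transcription factors and subunits of the DREAM and B-Myb complexes. It was 47.1% for condensin and cohesin, 42.1% for the anaphase-promoting complex list and 35.3% for the G1 list. A high CCAAT share was thus not particular to the members. These shares are a description, with no test between lists.

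All 37 members reached 1 FPKM in the control column, where 20.5% of all genes and 44.3% of protein-coding genes did so. Their levels lay between 1.03 FPKM for Nuf2 and 14.8 FPKM for Ube2c, a 14.4-fold range. The median was 4.14 FPKM, below the median of 7.89 FPKM over all genes at 1 FPKM or more, so most members were moderately expressed. The counts by level were 7 members from 1 to 2 FPKM, 15 from 2 to 5, 10 from 5 to 10, and 5 at 10 FPKM or more. Each member had between 289 and 4049 reads over the libraries, and all 37 could be split into library reads.

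Longer genes tended to sit lower on this per-length scale, with a Spearman rho of -0.61 between gene length and FPKM over the 37 members. The members share the same libraries and FPKM already divides by length, so this is a description. Cenpf, with 15433 bases the longest, was at 1.07 FPKM, and Ccnb2, with 1531 bases the shortest, at 10.2 FPKM.

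Among the cyclins and their kinase, Ccnb2 was highest in every library. In libraries 1, 2 and 3, always in that order below, Ccnb2 had 9.34, 10.1 and 11.2 FPKM and Ccnb1 had 5.61, 6.18 and 7.17 FPKM. Cdk1, their catalytic partner, was at 4.32, 4.86 and 5.56 FPKM, and Ccna2 (cyclin A2) at 4.98, 5.26 and 5.92 FPKM. All 4 were thus lowest in library 1, between in library 2 and highest in library 3. Cdc25c, the phosphatase that removes inhibitory phosphates from Cdk1, was at 3.27, 3.26 and 3.59 FPKM, close to each other in all libraries. Ccnf (cyclin F, the substrate receptor of a ubiquitin ligase) took another order, with 5.67, 4.57 and 7.67 FPKM.

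The mitotic kinases covered a wide range of levels. Plk1, the Polo-like kinase, was at 9.31, 6.83 and 11.2 FPKM, lowest in library 2. Aurka, the Aurora kinase of spindle poles, was at 6.13, 7.28 and 7.52 FPKM, and Aurkb, the Aurora kinase of the passenger complex, at 2.92, 2.93 and 3.86 FPKM. The spindle checkpoint kinases were lower still. Bub1 was at 1.47, 1.92 and 2.21 FPKM and Ttk at 1.17, 1.31 and 1.53 FPKM, and both were highest in library 3.

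The highest levels of all members were those of 2 genes that drive exit from mitosis. Ube2c, the ubiquitin-conjugating enzyme of the anaphase-promoting complex, was at 11.6, 16.9 and 16.0 FPKM, and Cdc20, its mitotic activator, at 12.1, 14.8 and 17.2 FPKM. Library 1 was lowest for both. Bub1b (BubR1), which inhibits Cdc20 as part of the checkpoint, was at 2.73, 3.38 and 3.67 FPKM. Cdca3, a protein linked to mitotic entry through the degradation of Wee1, was at 4.90, 4.78 and 6.91 FPKM, with library 3 apart from the others.

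The proliferation marker Mki67 (Ki-67, which coats mitotic chromosomes) was at 4.62, 4.93 and 6.49 FPKM, from 725, 714 and 937 reads. Top2a, the topoisomerase that untangles sister chromatids, was at 8.73, 9.21 and 12.6 FPKM, from 1226, 1195 and 1628 reads, the most of any member. For both, libraries 1 and 2 lay close together and library 3 above them.

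The centromere and kinetochore genes were the lowest group, with a median of 2.25 FPKM over 7 members, passenger proteins included. Cenpa, the histone H3 variant of centromeres, was at 4.49, 5.09 and 4.95 FPKM, and Cenpe, a kinetochore motor, at 2.11, 2.26 and 2.38 FPKM. The highest and lowest library of Cenpa differed by 1.13-fold, and those of Cenpe by 1.12-fold. Cenpf, a large kinetochore protein, was at 0.964, 0.964 and 1.29 FPKM.

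Ndc80 and Nuf2, which pair in the microtubule-binding complex of the kinetochore, differed in level. Ndc80 was at 1.39, 1.73 and 2.35 FPKM and Nuf2 at 1.04, 0.877 and 1.16 FPKM. Their partners Spc25 and Spc24 were at 3.45 and 2.03 FPKM as the authors' means. In each library Ndc80 thus lay above Nuf2.

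The passenger proteins Birc5 (survivin) and Cdca8 (borealin), which hold Aurkb at the centromere, varied most between libraries. Birc5 (mm10 chromosome 11, 117849251 to 117855743) was at 3.22, 5.41 and 5.98 FPKM, from 171, 265 and 292 reads. Cdca8 (chromosome 4, 124918465 to 124939311) was at 1.76, 2.11 and 3.47 FPKM, from 142, 157 and 258 reads. Birc5 stood apart in library 1 and Cdca8 in library 3. Incenp, the scaffold of the complex, was at 9.04 FPKM in the column.

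Spindle motors were expressed between 1.82 and 5.98 FPKM. Kif20a, a kinesin of the central spindle, was at 5.56, 5.73 and 6.66 FPKM, and Kif11, which pushes spindle poles apart, at 2.85, 2.96 and 3.28 FPKM. Kif2c, which takes microtubules apart at their ends, was at 2.26, 2.66 and 3.23 FPKM. All 3 were highest in library 3. Kif23, the motor of centralspindlin, was at 1.84, 2.03 and 2.08 FPKM and its partner Racgap1 at 9.55 FPKM in the column. Kif20b was at 1.72, 2.01 and 1.72 FPKM, the only member with its lowest value in library 3, by less than the rounding shown.

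Non-motor spindle proteins reached higher. Ckap2, a microtubule-associated protein, was at 11.2, 13.2 and 11.4 FPKM, highest in library 2. Tpx2, which activates Aurka on the spindle, was at 8.17, 8.84 and 11.5 FPKM, and Tacc3, a substrate of Aurka on spindle fibres, at 6.41, 8.53 and 8.87 FPKM. Both were lowest in library 1. Nusap1 (chromosome 2, 119618298 to 119651244), a spindle-binding protein, was at 2.94, 4.35 and 5.13 FPKM, from 186, 254 and 299 reads. Hmmr, which acts in spindle assembly, was at 2.49, 2.58 and 3.04 FPKM. Prc1, which bundles microtubules of the spindle midzone, was at 2.68, 2.04 and 2.79 FPKM, lowest in library 2.

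Of the cytokinesis genes, Anln (anillin, a scaffold of the contractile ring) was at 3.84, 3.83 and 4.05 FPKM. Its libraries lay within 1.06-fold of each other, the narrowest range of any member. Ect2, the exchange factor that switches on RhoA at the cleavage furrow, was at 2.26, 2.26 and 2.83 FPKM.

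**Figure D2:**
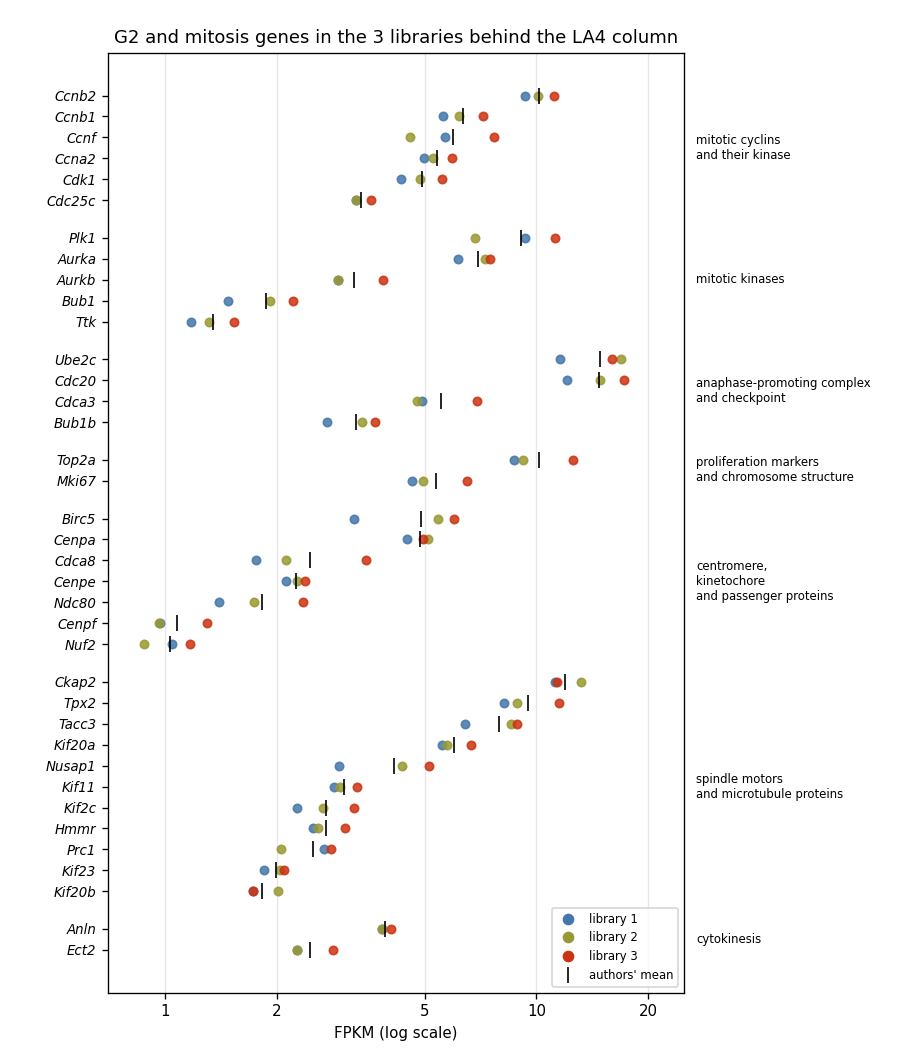
FPKM (log scale) of each of the 37 members in libraries 1, 2 and 3 (circles) with the authors' mean (vertical tick), grouped by role and ordered by level within a role. Library 3 is the right-most circle for 33 members, and library 1 is never the right-most.

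Read across all members, 33 of 37 had their highest value in library 3, 4 in library 2 and 0 in library 1. Among all 10416 genes at 1 FPKM or more with library reads, the shares were 31.8%, 34.5% and 33.7%. The 4 members highest in library 2 were Ube2c, Cenpa, Kif20b and Ckap2. Library 1 was lowest for 27 of 37 members, against 34.6% of all genes, and the order with library 1 lowest and library 3 highest held for 24 members, against 15.6%. Over the 7119 genes with as many reads as the members (289 to 4049), 32.6% were highest in library 3. That restriction of the background was added after values were seen.

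The sizes of these differences were modest. The ratio of library 3 to library 1 had a median of 1.29 over the members and 1.004 over all genes, and that of library 2 to library 1 a median of 1.08 against 1.0003. On the log2(FPKM + 1) scale, the median over members of each library minus the mean of the remaining libraries was -0.16 in library 1, -0.03 in library 2 and 0.22 in library 3. Its sign in library 2 depended on which library it was set against, with 0.093 against library 1 alone and -0.17 against library 3 alone. The difference of library 1 was -0.093 against library 2 alone and -0.26 against library 3 alone. All members together had 11253, 11428 and 13460 reads in libraries 1, 2 and 3. Per library size, library 3 held 1.30 times the reads of library 1 (95% interval 1.27 to 1.33), and library 2 held 1.1002 times those of library 1 (1.07 to 1.13). Such intervals are exact Clopper-Pearson limits on counts and cover counting error only.

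Gene by gene, the interval of the ratio of library 3 to library 1 lay above 1 for 25 of 37 members, against 21.6% of all genes, and below 1 for 0 members, against 20.6%. These comparisons are between libraries and not between conditions. The highest ratios were those of Cdca8 at 1.97 (1.60 to 2.44), Birc5 at 1.86 (1.53 to 2.25), Nusap1 at 1.75 (1.45 to 2.11) and Ndc80 at 1.69 (1.36 to 2.10). Top2a, with the most reads, was at 1.44 (1.34 to 1.55) and Mki67 at 1.40 (1.27 to 1.55). At the other end Kif20b was at 0.9992 (0.808 to 1.24), Ckap2 at 1.01 (0.899 to 1.15), Prc1 at 1.04 (0.891 to 1.21) and Anln at 1.05 (0.933 to 1.19). The interval also included 1 for Ccnb2, Cdc25c, Ttk, Cenpa, Cenpe, Nuf2, Kif11 and Kif23. For all of these, no difference between libraries 1 and 3 was detectable at this depth.

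**Figure D3:**
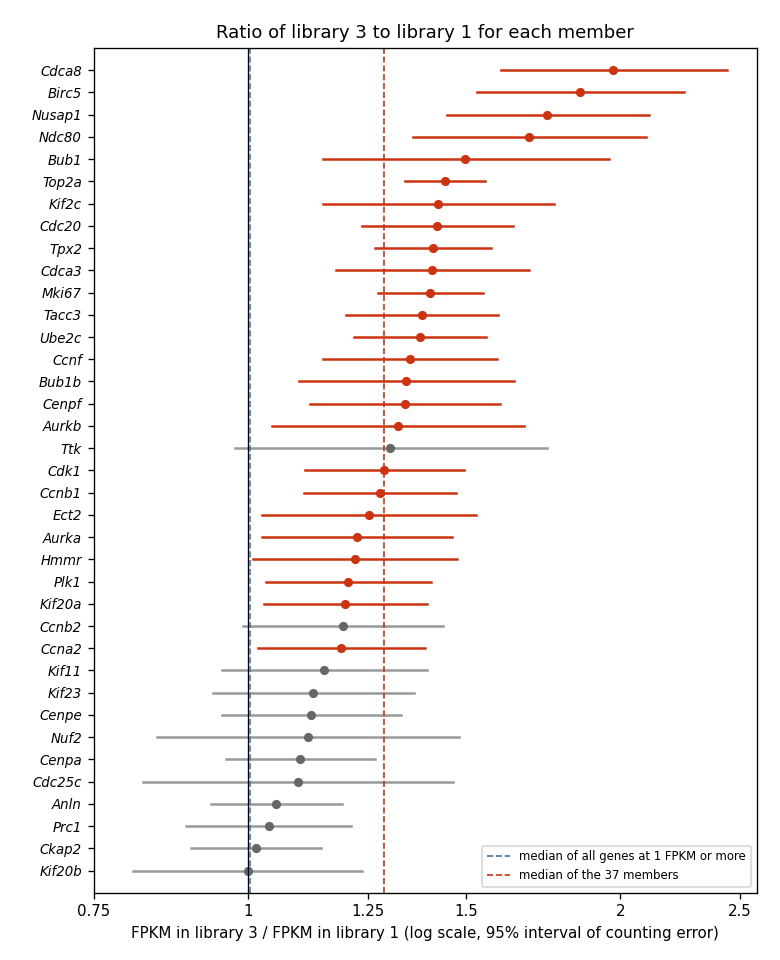
Ratio of FPKM in library 3 to FPKM in library 1 (log scale) for each member, with its 95% interval of counting error as a bar, in red where the interval lies above 1. The 37 members have a median of 1.29 (red dashed line), and all genes at 1 FPKM or more one of 1.004 (blue dashed line).

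Libraries 2 and 3, whose sizes are nearly equal, also differed for the members. The interval of their ratio lay above 1 in library 3 for 14 of 37 members, against 21.8% of all genes, and below 1 for 1 member (Ckap2), against 21.6%. Ccnf and Plk1 had ratios of 1.68 (1.41 to 2.00) and 1.64 (1.38 to 1.96), and Cdca8 one of 1.65 (1.35 to 2.02). Between libraries 2 and 1 the interval lay above 1 for 7 of 37 members, against 23.2% of all genes, and below 1 for 3 members, against 23.5%. The 3 were Plk1 at 0.734 (0.614 to 0.875), Prc1 at 0.762 (0.644 to 0.901) and Ccnf at 0.807 (0.67 to 0.97).

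The other cell cycle lists were set beside the members between the same libraries, as a description with no test. S phase genes, which copy DNA, had 19 of 22 members at 1 FPKM or more, led by Pcna at 35.5 FPKM, Mcm7 at 12.1 FPKM and Mcm3 at 6.85 FPKM. Of the 19, 17 were highest in library 3, and their median ratio of library 3 to library 1 was 1.499. Checkpoint and kinetochore partners had a median ratio of 1.29 over 15 genes, with 10 highest in library 3, led in level by Bub3 at 16.5 FPKM, Mis12 at 9.07 FPKM and Cenpt at 7.27 FPKM. Passenger and centralspindlin partners had one of 1.36 over 5 genes, led by Racgap1, Incenp and Kif22 (3.83 FPKM).

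For 3 further lists the median ratio was nearer to 1. The anaphase-promoting complex list also holds Fzr1, Fbxo5 and Ube2s, which act with or on the complex and are not its subunits. All its 17 genes were at 1 FPKM or more, and the median ratio was 1.095 over the 16 with library values. It was led in level by Anapc5 at 79.1 FPKM, which has no library values, Anapc2 at 52.7 FPKM and Cdc16 at 36.6 FPKM. Condensin and cohesin genes had a median ratio of 1.03 over 18 genes, led by Ncaph2 at 36.9 FPKM, Rad21 at 35.9 FPKM and Smc1a at 24.7 FPKM. The G1 cyclins, kinases and inhibitors had one of 1.06 over 15 genes. That list was led in level by Cdk4 at 205 FPKM, Cdkn2b at 78.5 FPKM and Ccnd2 at 36.4 FPKM, with Cdkn1c at 0 reads. Cdk4 and Ccnd2 had too many reads to be split into libraries, so they are not among the 15. The 3 lists differed in how their genes were split above and below 1. The interval of the ratio lay above 1 for 8 of the 16 genes of the anaphase-promoting complex list and below 1 for 0. Above and below 1 it lay for 7 and 5 of the 18 condensin and cohesin genes, and for 4 and 4 of the 15 G1 genes. Among all genes the shares were 21.6% above and 20.6% below.

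Upstream regulators were mixed. Transcription factors and subunits of the DREAM and B-Myb complexes had 13 of 17 genes at 1 FPKM or more and a median ratio of 0.966, with 3 of 13 highest in library 3. They were led by E2f4 at 34.6 FPKM, Tfdp1 at 28.7 FPKM and Lin37 at 26.0 FPKM. Foxm1 was at 4.65, 4.95 and 5.53 FPKM, the library order of most members, with a ratio of 1.19 (1.04 to 1.36). Mybl2 (B-Myb) was at 1.12, 1.08 and 1.08 FPKM, with a ratio of 0.966 (0.693 to 1.34). Mitotic entry regulators had 7 of 9 genes at 1 FPKM or more and a median ratio of 1.13, led by Gadd45a at 44.5 FPKM, Cdc25b at 7.47 FPKM and Wee1 at 6.27 FPKM. What sets libraries 1 and 3 apart was not tested.

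**Figure D4:**
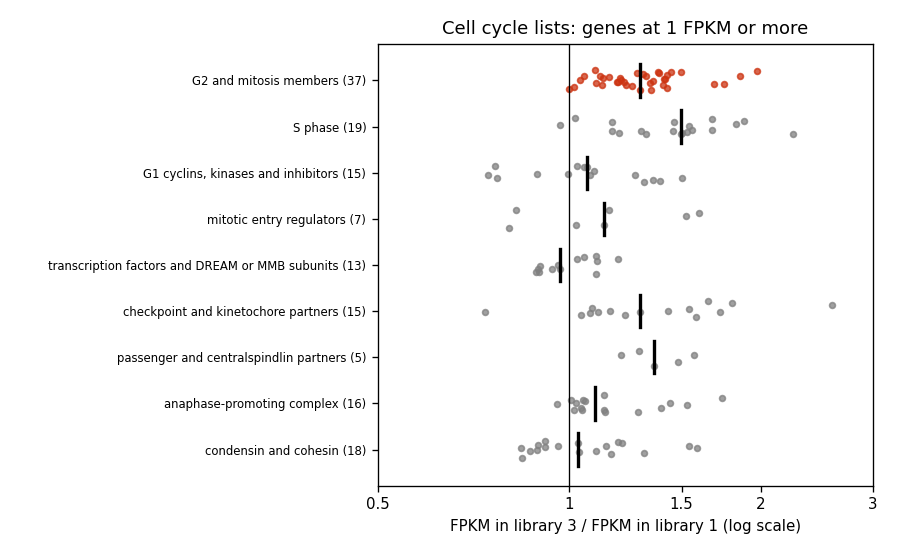
Ratio of FPKM in library 3 to FPKM in library 1 (log scale) for the members (red) and the genes of 8 other cell cycle lists (grey) at 1 FPKM or more, with each list's median as a black bar and the number of genes in brackets. Medians are 1.29 for the members, 1.499 for S phase genes and 0.966 for transcription factors and complex subunits.

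Some levels rest on sequence that other genes share, and how reads of several genes were counted is not given in the sources used here. For 30 members under 10% of their 31-base words occurred in transcripts of another gene. The highest shares were 41.3% for Ccnb1, mostly with the pseudogene Ccnb1-ps, and 30.1% for Cdc20, mostly with Gm7856. Exons of Kif20a overlapped those of Cdc23 on the opposite strand over 33.5% of its length, and Cdc23 was at 4.56 FPKM, so their reads cannot be told apart without strand. Exons of Cdc25c overlapped Gm3550 over 32.1% and those of Ube2c overlapped Tnnc2 over 22.8%, but these partners were at 0.0818 and 0.0535 FPKM. Shorter overlaps on the opposite strand had expressed partners. Ccna2 met Exosc9 over 12.5% (9.03 FPKM), Prc1 met Rccd1 over 11.1% (1.72 FPKM) and Tacc3 met Tmem129 over 8.14% (11.2 FPKM). Cdca8 met 9930104L06Rik over 4.48% (2.98 FPKM), Nusap1 met Oip5 over 4.24% (1.15 FPKM) and Cdc20 met Elovl1 over 2.84% (35.3 FPKM). For 4 members the gene length in the table was shorter than the exon bases of GENCODE mouse release M21. Reads were not counted on the longer models, so how their FPKM would change is not known. The lengths were 3099 against 7800 bases for Ccnf, 1941 against 4919 for Cdc25c, 4819 against 7461 for Kif11 and 3796 against 4338 for Kif20a.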

How the data were processed

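Per the labels' protocols, the SMARTER mRNA-Seq kit was used on LA4 RNA. The authors deposited FPKM, with each gene's length and coordinates beside it, per the file headers. Per the submitters' processing notes the genome build was mm10. The aligner, counting, strand handling and any filter were not given in the sources used here. The 3 value columns with suffixes that match no label were not used.

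FPKM times gene length gave 3 recurring steps, the worth of 1 read in each library. Whole reads were searched within a relative tolerance of 1e-14 (1e-12 for genes of up to 100 reads) up to 10000 reads. All searched genes had a single solution, 20632 of 21403 genes above 0 (96.4%), and the other 771 had more reads than the limit. Of 900 decoy values, 1 had a solution. The search was also tested on simulated data.

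Members and lists were chosen with earlier results of these data known. A lymphocyte marker is not reported here. All 37 members are named, and of other lists the 3 highest genes, those at 0 reads and the members' partners or regulators, the last chosen after their values were seen. No test was made, since each group has 1 sample. Genes at 1 FPKM or more were compared between libraries, with a pseudocount of 1 on the log2 scale and 95% intervals. Shared sequence was measured in 31-base words (1 in 8 positions) of GENCODE release M21 transcripts. Alternatives covered thresholds, rescaling, library sizes, shared sequence and leaving out each library. Scripts ran in Python 3.11.15 with scipy 1.17.1 for intervals, numba 0.67.0 for the search, pandas 2.3.3 on numpy 2.4.6 for tables, and plots in matplotlib 3.10.9.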

Additional observations from a re-analysis of the deposited data

How the results depend on the processing

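Of 57 alternative values, 49 stayed within 1.5 times (counts) or within their spread (medians and shares). Those with no filter on low values equal the reported values by construction, since all 37 members passed the filter. For the log2 differences the spread was the SD over members, which is not the error of a median. By that measure a move in library 2 from -0.034 to -0.17 still stayed within, so the tally is lenient. At a threshold of 5 FPKM in place of 1, 15 members passed, by construction of the threshold, of which 13 were highest in library 3 and 2 in library 2. With a margin of 1.1-fold over the next library, 25 members were highest in library 3 and 2 in library 2. The shares of all genes under these stricter rules were not computed, so these counts have no background beside them. The members' median of 4.14 FPKM became 11.5 after rescaling to a fixed total (TPM), by construction, and 5.18 as a mean over members. Without 1 library in turn, the members at 1 FPKM or more were 35 to 37 and their median 3.84 to 4.74 FPKM. The log2 difference then ranged from -0.26 to -0.093 in library 1, from -0.17 to 0.093 in library 2, which reversed its sign without library 3, and from 0.17 to 0.26 in library 3. In the 150 bases before the start site alone, the CHR core was in 35.3% of member promoters, against 9.70% of all, since many cores lie after the start. No paired analysis was possible because only the control column was mapped. The comparison between columns was not run for the same reason. Depth limits the ratios of low members most, with 80 reads for Nuf2 in library 2, the fewest of any member.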

Other observations

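The spacing of CCAAT boxes in the member promoters was looked at after the sequences had been read. In 7 of 34 member promoters (20.6%) neighbouring boxes on the same strand lay 30 to 36 bases apart, first base to first base, against 1.27% of all promoters. Among promoters with 2 or more boxes, the share was 38.9% for members and 10.8% for all. The 7 were those of Aurka, Ccnb1, Ccnb2, Cdca8, Cdk1, Hmmr and Ube2c.

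Members with and without a CHR core were also set side by side, with no test. The 26 with a core had a median of 3.58 FPKM and a median ratio of library 3 to library 1 of 1.30, with 22 highest in library 3. The 6 without one had a median of 4.51 FPKM and a median ratio of 1.33, with 6 highest in library 3. Among all genes at 1 FPKM or more with library reads, 31.8% were highest in library 3.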
